A study of Rattus norvegicus with 14 samples.

Results

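The genes described here are those of the proteasome, the barrel-shaped protease that degrades ubiquitin-tagged proteins. They were taken by symbol: every gene whose name in the probe annotation begins with Psma, Psmb, Psmc, Psmd, Psme or Psmg followed by a digit, with a signal of at least 100 on at least 2 of the 14 arrays, and 1 probe set per gene, the one with the highest mean log2 signal. The rule gave 45 of the 9840 named genes tested, and none of the 45 matching genes was lost to the signal minimum. The dimmest was Psmb8, which reached 100 on 6 arrays. They comprised 7 genes of the alpha rings and 6 of the beta rings of the core, 3 immunoproteasome subunits, 9 genes of the base and 8 of the lid of the regulatory cap, 3 activators and 7 assembly chaperones. A further 2 genes, Psmc3ip and Psme3ip1, carry a subunit's name without being subunits, and 43 remain without them. Psmb6 and Psme3 lay on probe sets annotated to more than 1 gene and have no values here.

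RNA was measured on one-colour Affymetrix arrays in IEC-6, a non-transformed epithelial line from rat small intestine, after 72 h in culture with a non-steroidal anti-inflammatory drug (NSAID) or its solvent. The groups were the solvent control DMSO (4 arrays), Indomethacin at 100 µM (2 arrays), NS-398 at 100 µM (4 arrays) and SC-560 at 1 µM (4 arrays). Indomethacin inhibits both cyclooxygenases, NS-398 prefers cyclooxygenase-2 and SC-560 prefers cyclooxygenase-1. The submitters chose Indomethacin and NS-398 as drugs that slow the migration of such monolayers, and SC-560 as 1 that does not. Material was pooled and each pool was put on several arrays, so every p-value here reflects array-to-array spread that may be technical.

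The proteasome core is a stack of 4 rings. The outer alpha rings gate the entry and the inner beta rings hold the proteolytic sites. The regulatory cap has a base, whose ATPases unfold substrates, and a lid, which removes ubiquitin. Interferon replaces the active beta subunits by the immunoproteasome subunits Psmb8, Psmb9 and Psmb10, which shift cleavage towards peptides for antigen presentation, and induces the activator made of Psme1 and Psme2. Transcription of the constitutive subunits is raised by the factor Nfe2l1 when proteasome activity falls short.

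Array names ended in 1 or 2, and on 8 of the 14 in 1b or 2b. The 6 arrays without the letter b and the 8 with it are called the arrays without the suffix and the suffix b arrays. The labels do not say what the letter stands for, and both indomethacin arrays carried it. These label sets stood far apart: 31.0% of the 17515 probe sets tested were higher and 28.0% lower on the suffix b arrays (limma, adjusted p under 0.05). Cdx2, the intestinal transcription factor, had DMSO signals of 66.9 and 99.8 without the suffix against 3072 and 3607 with it, while the epithelial cadherin Cdh1 went the other way, from 7963 and 7814 to 3295 and 3015. Of 9 epithelial markers with a probe set, 6 reached a signal of 100 on at least 2 arrays, Cdh1 and Krt8 among them, and Krt18, Epcam and Cldn3 never did. Among 12 markers of fibroblasts and smooth muscle 9 did, and of 10 leukocyte markers only Cd14 and Cd68 did, while Ptprc, Cd3e and Cd74 stayed below 100 on every array. The summed signal of the leukocyte list without the suffix was 3828 to 4000.4 in DMSO, 4210.0 to 4291 under NS-398 and 3799.5 to 3892 under SC-560. On the suffix b arrays it was 3481 to 3772 in DMSO, 4047 to 4209.5 under NS-398, 4103 to 4532 under indomethacin and 3295 to 3413 under SC-560, so it was highest under NS-398 and indomethacin. Cd14 alone gave most of it (3594 and 3805 in DMSO without the suffix). The epithelial list summed to 11422 to 11440.2 in DMSO, 10833.5 to 11293 under NS-398 and 11508 to 11730.3 under SC-560 without the suffix. With it the sums were 12884 to 13423 in DMSO, 13136 to 14148 under NS-398, 15964 to 15975 under indomethacin and 14364 to 14379.6 under SC-560. The fibroblast and smooth muscle list summed to 72854 to 75010 in DMSO, 68250.5 to 72341 under NS-398 and 75868 to 78418 under SC-560 without the suffix. With it the sums were 91163 to 94391 in DMSO, 91873 to 96842 under NS-398, 90865 to 94362 under indomethacin and 103565 to 105998 under SC-560. Of its 9 genes, Dcn (0.80) and Des (0.61) rose and Tagln (-1.04) and Col1a2 (-0.24) fell under NS-398, and Tagln (-1.65) and Dcn (-0.59) fell under indomethacin. In the epithelial list Krt8 fell under NS-398 (-0.30) and rose under indomethacin (0.23), and in the leukocyte list Cd14 rose under indomethacin (0.27). The part of these markers in the results was not tested. In bulk RNA, fewer cells of a type and less RNA per cell cannot be told apart. The label set was a term in the fits unless said otherwise. Where a group's signals are listed as a pair of values and then another pair, the first pair comes from the arrays without the suffix.

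The promoters below are those of the immunoproteasome subunits and Psme2. Apart from Psmb8, Psme2 and Psmb10 had the largest estimated differences between the label sets, and the NS-398 effect on Psmb9 differed between them. The label set difference of Psmb8 is not used, since it met the signal minimum only on the arrays without the suffix. RefSeq's promoter windows on GRCr8, 250 bases before to 50 after the gene start, were matched for 41 of the 45 genes, without Psma7, Psmd6, Psmd12 and Psmd14. Capitals mark the core of the interferon-stimulated response element (ISRE), searched as GAAANNGAAA on both strands, in the first 3 windows, and the CCAAT box, searched as CCAAT on both strands, in the window of Psmb9, which holds no ISRE core. In Psmb8 and in Psmb9 the match lies on the opposite strand. The windows are chr20:4656982-4657281 (minus strand) for Psmb8, chr19:50743243-50743542 (minus strand) for Psmb10, chr15:33052702-33053001 (minus strand) for Psme2 and chr20:4668750-4669049 (plus strand) for Psmb9.
Psmb8: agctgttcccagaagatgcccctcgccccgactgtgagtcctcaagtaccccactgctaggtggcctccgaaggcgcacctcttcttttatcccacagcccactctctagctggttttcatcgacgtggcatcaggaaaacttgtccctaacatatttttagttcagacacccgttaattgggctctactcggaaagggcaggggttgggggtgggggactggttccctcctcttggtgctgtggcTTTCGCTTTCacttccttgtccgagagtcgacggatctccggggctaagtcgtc
Psmb10: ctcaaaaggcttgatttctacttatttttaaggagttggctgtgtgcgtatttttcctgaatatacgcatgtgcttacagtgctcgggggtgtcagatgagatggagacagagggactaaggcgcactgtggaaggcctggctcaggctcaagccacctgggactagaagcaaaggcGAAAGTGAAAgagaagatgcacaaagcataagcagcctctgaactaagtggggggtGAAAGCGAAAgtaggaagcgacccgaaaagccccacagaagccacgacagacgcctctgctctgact
Psme2: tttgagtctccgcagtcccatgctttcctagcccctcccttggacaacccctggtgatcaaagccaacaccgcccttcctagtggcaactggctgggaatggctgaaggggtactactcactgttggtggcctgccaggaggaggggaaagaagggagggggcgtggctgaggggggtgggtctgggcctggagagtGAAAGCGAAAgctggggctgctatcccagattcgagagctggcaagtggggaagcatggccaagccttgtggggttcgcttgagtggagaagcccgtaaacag
Psmb9: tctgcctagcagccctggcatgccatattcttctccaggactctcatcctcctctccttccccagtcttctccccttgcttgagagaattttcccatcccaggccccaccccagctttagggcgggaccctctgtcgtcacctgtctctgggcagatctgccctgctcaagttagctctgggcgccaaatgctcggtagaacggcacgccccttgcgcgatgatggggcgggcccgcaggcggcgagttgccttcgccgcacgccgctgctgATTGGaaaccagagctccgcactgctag
The ISRE core was found in 7 of the 41 windows (17.1%), against 3.92% of all 33469 windows of this length. Besides the 3 genes shown, Psma4, Psmb3, Psmd7 and Psmg4 held it. Unlike the genes shown, Psmb3 (log2 difference 0.18), Psmd7 (0.13) and Psmg4 had higher estimates on the suffix b arrays, while that of Psma4 was lower. The ETS core CCGGAA was found in 21 windows (51.2% against 15.0% of all) and the CCAAT box also in 21 (51.2% against 37.5%). The antioxidant response core TGACNNNGC, the type of element that Nfe2l1 and Nfe2l2 bind, was in 7 windows (17.1% against 12.1%), those of Psma3, Psmb2, Psmb5, Psmd1, Psmd3, Psmd9 and Psme4. The motifs were chosen with the expression values known, and a match describes letters in a window.

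Under NS-398 the signals of a part of the constitutive proteasome were lower by small amounts. Of the 45 genes, 9 fell and 1 rose against DMSO (limma, adjusted p under 0.05), where 6.39% of all probe sets fell and 7.12% rose. The median log2 change of the 45 was -0.084, against -0.0076 over all probe sets tested, and 35 of the 45 lay below 0, as did 51.8% of all probe sets. Members are bright genes: among 5210 probe sets with a mean signal of at least 1000, 10.9% fell, and of the 40 members among them 9 did. The log2 change was below 0 for 9 of 9 base genes (3 fell), 8 of 8 lid genes (3 fell), 6 of 7 alpha ring genes (1 fell) and 5 of 6 beta ring genes (1 fell). Genes of a class are not independent counts: DMSO 1b also lay above DMSO 2b for 9 of 9 base and 8 of 8 lid genes. Among the 7 assembly chaperones 5 lay above 0, and 1 of them rose.

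**Figure D1:**
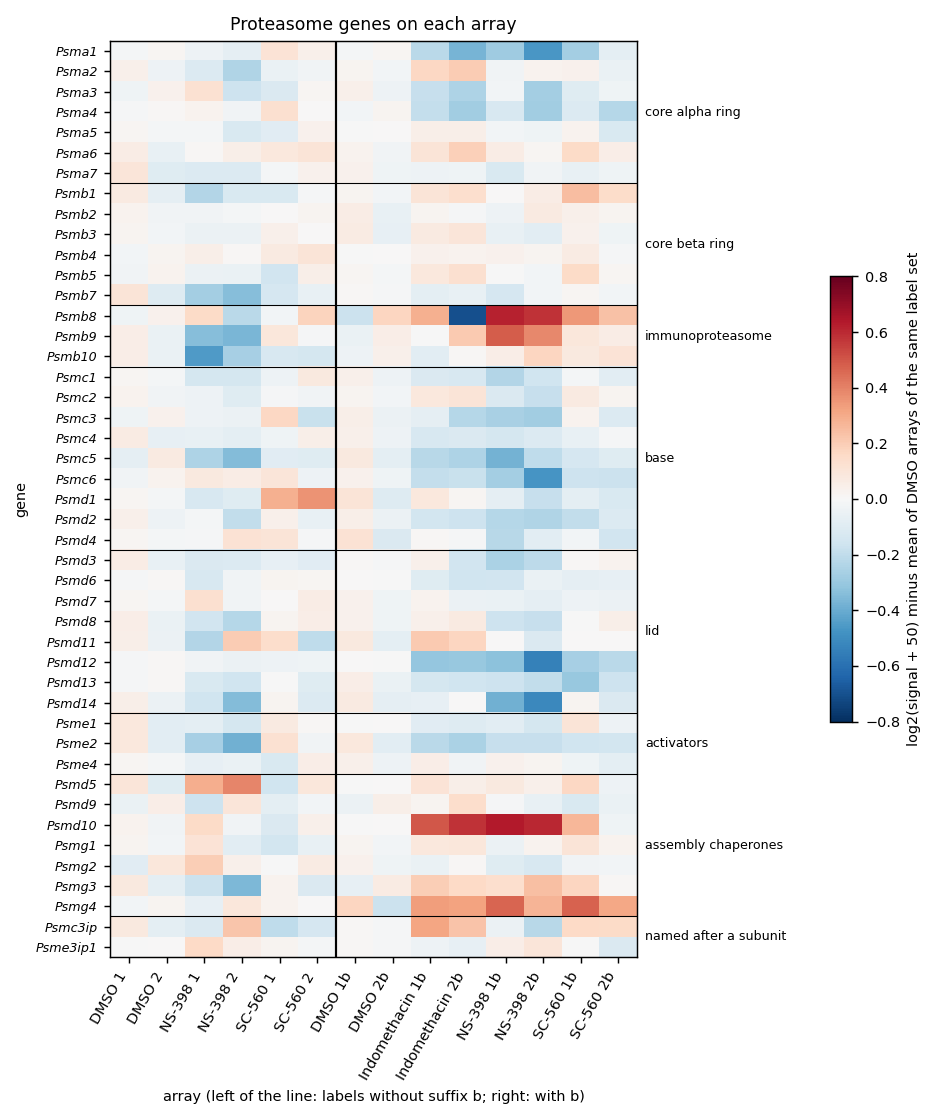
Each row is a proteasome gene, grouped by its place in the complex, and each column an array; colour gives log2(signal + 50) minus the DMSO mean within that label set, in log2 units. Blue runs down the base and lid rows of the NS-398 arrays. On the suffix b arrays of NS-398, Psmd10, Psmb8 and Psmb9 are red and Psmb10 is nearly white. Psmb8 has signals below 100 on those arrays, too dim to be read.

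On single arrays, the median of the 45 genes relative to the DMSO mean of the same label set was -0.061 and -0.078 on the NS-398 arrays without the suffix and -0.060 and -0.086 on those with it. The DMSO arrays lay within 0.024 of 0 by the same measure. The 2 DMSO arrays of a set define that mean, so their values mirror each other and do not measure the spread. The SC-560 arrays lay between -0.037 and 0.0095. The indomethacin arrays lay at 0.023 and -0.0077. The 4 NS-398 arrays thus had the 4 lowest medians. For scale, the SD of the members' median log2 value between arrays of 1 group and label set was 0.047.

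In the lid, Psmd14 is the metalloprotease that cuts ubiquitin chains from substrates. Its DMSO signals were 5097 and 4753 without the suffix and 5507 and 4994 with it, and its NS-398 signals 4411 and 3854, and 3997 and 3657. Indomethacin gave 5000.2 and 5258, and SC-560 5004 and 4563, and 5316 and 4832. All 4 NS-398 arrays lay below all other 10 arrays. The log2 change was -0.35 ± 0.064 (SE, 4 against 4 arrays, limma adjusted p = 0.00157), with -0.25 without the suffix and -0.45 with it. Its other probe sets gave -0.22 (adjusted p = 0.0159) and -0.25 (adjusted p = 0.0616).

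Psmd8, a lid subunit needed for the lid to join the base, had DMSO signals of 4248 and 3943 without the suffix and 3159 and 3019 with it. NS-398 gave 3671 and 3489, and 2747 and 2717. In both label sets the NS-398 arrays were the lowest, also below SC-560 (4153 and 4239, and 3078 and 3192) and indomethacin (3175 and 3247). The log2 change was -0.18 ± 0.046 (limma adjusted p = 0.0141), -0.19 without the suffix and -0.17 with it.

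Psmd12, a scaffold subunit of the lid, had a larger difference on the suffix b arrays. Without the suffix the DMSO signals of 2099 and 2133 stood against 2071 and 2049 under NS-398 and 2055 and 2063 under SC-560. With the suffix DMSO gave 1885 and 1871, NS-398 1488 and 1274, indomethacin 1507 and 1511 and SC-560 1557 and 1611. In both sets every treated array lay below both DMSO arrays, by little without the suffix. The log2 change for NS-398 was -0.24 ± 0.073 over both sets (limma adjusted p = 0.0407), -0.038 without the suffix and -0.43 with it.

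In the base, Psmc5 is 1 of the ATPases that pull substrates into the core. Its DMSO signals were 2059 and 2277 without the suffix and 2596 and 2332 with it, and its NS-398 signals 1814 and 1689, and 1883 and 2132. Indomethacin gave 2104 and 2062, and SC-560 2026 and 2020.2, and 2234 and 2296. Within each set the NS-398 arrays did not overlap DMSO, and the log2 change of -0.29 ± 0.058 (limma adjusted p = 0.00313) was nearly the same without the suffix (-0.30, adjusted p = 0.034) and with it (-0.29, adjusted p = 0.0289). On the suffix b arrays the indomethacin signals overlapped those of NS-398.

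Psmd2, the large base subunit that receives ubiquitin-like domains, had DMSO signals of 5244 and 4938 without the suffix and 5614 and 5280.4 with it. NS-398 gave 5029 and 4433, and 4635 and 4595, indomethacin 4906 and 4848, and SC-560 5239 and 4874, and 4747 and 5039.6. The groups overlapped without the suffix and not with it, for a log2 change of -0.17 ± 0.053 (limma adjusted p = 0.0397), -0.11 without the suffix and -0.24 with it. The ATPase Psmc1 changed by -0.17 ± 0.051 (limma adjusted p = 0.037), -0.14 without the suffix and -0.20 with it, and NS-398 lay below DMSO in both sets.

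In the core, Psma1 is a subunit of the alpha ring. DMSO gave 7394 and 7527 without the suffix and 6321 and 6458 with it, NS-398 7237 and 7093, and 5237 and 4610.5, indomethacin 5498 and 4926, and SC-560 8066 and 7673, and 5294 and 6055. NS-398 was below DMSO in both sets, with a log2 change of -0.058 without the suffix, -0.38 with it and -0.22 ± 0.067 over both (limma adjusted p = 0.0398). Psmb7 carries the trypsin-like activity. Its DMSO signals were 5576 and 4824 without the suffix and 5057 and 5004 with it, against 4281 and 4079, and 4575 and 4951 under NS-398. Indomethacin gave 4762 and 4817, and SC-560 4712 and 4977, and 5093 and 4951. Here the larger difference was without the suffix (-0.31, against -0.079 with it), for a log2 change of -0.19 ± 0.057 (limma adjusted p = 0.0322). Psmb5, which carries the chymotrypsin-like activity that clinical proteasome inhibitors target, gave 6633 and 6884, and 6697 and 6529 in DMSO. NS-398 gave 6533 and 6500.2, and 6587 and 6502, SC-560 6082 and 6973, and 7362 and 6689, and indomethacin 7004 and 7236. Its log2 change under NS-398 was -0.033 ± 0.05, with a 95% interval of -0.14 to 0.073.

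Psmd10 (gankyrin), a chaperone of base assembly that also binds the retinoblastoma protein, was the 1 gene of the 45 that rose. Its DMSO signals were 1004 and 964 without the suffix and 1073 and 1083 with it. NS-398 gave 1102 and 963 without the suffix, overlapping DMSO, and 1699.7 and 1664 with it, above every DMSO and SC-560 array (903 and 1013, and 1307 and 1054). Indomethacin gave 1539 and 1636. The log2 change for NS-398 was 0.34 ± 0.1 over both sets (limma adjusted p = 0.0309), 0.063 without the suffix and 0.62 with it (adjusted p = 0.0014).

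**Figure D2:**
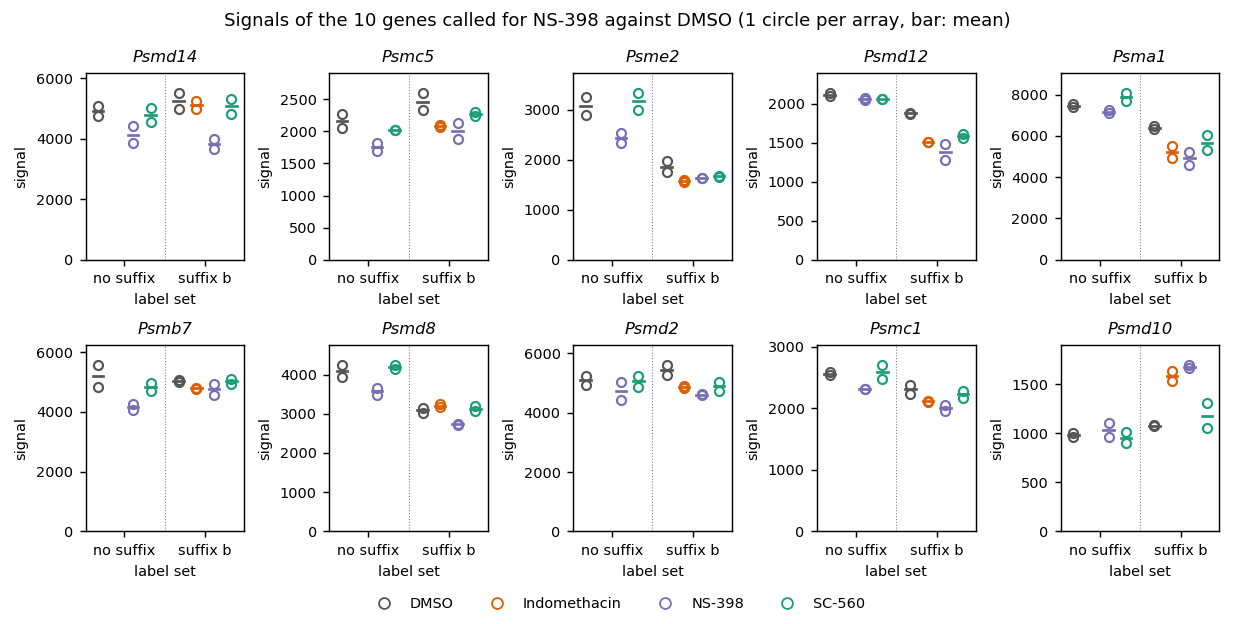
Signals of the 10 genes that passed the test for NS-398 against DMSO, 1 circle per array with a bar at the mean, on linear axes from 0, by label set. NS-398 lies below DMSO in both sets for 8 genes, as it does for the uncalled Psmc2, Psmc3, Psmd3, Psmd6 and Psmd13, not shown. The share of all probe sets that do so was not counted, and such separation favours a call, so it adds no support. Psmd2 overlaps without the suffix, and Psmd10 is higher only on the suffix b arrays, where indomethacin is higher as well.

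How firmly these calls hold differs by gene. Psmd14, Psmc5 and Psmd8 kept an adjusted p under 0.05 whichever array was left out (highest 0.00875, 0.0159 and 0.049 in limma). The other 7 each lost it without at least 1 array, and the count of 10 fell to 4 without DMSO 1b or NS-398 1b, to 5 without DMSO 2b or NS-398 2b and to 6 without DMSO 1 or NS-398 2. Psma1 lost it without DMSO 1b, DMSO 2b, NS-398 1b or NS-398 2b (limma adjusted p from 0.0566 to 0.133), and so did Psmd10 (0.0948 to 0.102). Psmb7 lost it without DMSO 1, NS-398 1, NS-398 1b or NS-398 2 (0.0558 to 0.115), and Psme2 without DMSO 1, DMSO 1b, NS-398 1 or NS-398 2 (0.0609 to 0.0918). Psmc1 lost it without any of the 8 DMSO and NS-398 arrays (0.0519 to 0.12). Psmd12 lost it without any of the 8 suffix b arrays (0.051 to 0.134), and Psmd2 without DMSO 1, NS-398 2 or any suffix b array but SC-560 1b (0.0501 to 0.139). With no term for the label set none of the 10 passed, and 3 did when arrays sharing group and set were a random block. On the suffix b arrays alone 10 members passed, 3 higher and 7 lower (7.62% and 6.62% of all probe sets), 6 of them among the 10 above. Without the suffix alone 5 passed, 1 higher and 4 lower (4.92% and 4.56% of all), 3 of them among the 10: Psmc5, Psme2 and Psmb7.

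The effect of NS-398 differed between the label sets for 4 of the 45 genes, tested as an interaction on the 12 arrays without indomethacin. It was more positive on the suffix b arrays for 2 and more negative for 2, where 2.92% and 2.55% of all probe sets were called. Among probe sets with a mean signal of at least 1000, these shares were 6.28% and 5.11%. Of the 40 members among these bright probe sets, 2 were more negative. Psmb9, a catalytic immunoproteasome subunit, had DMSO signals of 614 and 565 and NS-398 signals of 456 and 447 without the suffix. With the suffix DMSO gave 371 and 403 and NS-398 561 and 521. SC-560 gave 630.3 and 586, and 416 and 406, and indomethacin 387 and 455. NS-398 thus lay below DMSO in the first set (-0.35, adjusted p = 0.0635) and above it in the second (0.43, adjusted p = 0.0258), with no overlap in either. The difference of 0.79 ± 0.15 (limma adjusted p = 0.00627) kept its call whichever array was left out (highest 0.033).

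The other 3 interactions were those of Psmd10 (0.56 ± 0.14, limma adjusted p = 0.0365), Psmd12 (-0.40 ± 0.11, adjusted p = 0.045) and the base ATPase Psmc6 (-0.44 ± 0.11, adjusted p = 0.024). Psmc6 gave 2987 and 3119.7 in DMSO and 3225 and 3176 under NS-398 without the suffix, against 3046 and 2895, and 2446 and 2128 with it. SC-560 gave 3274 and 2964, and 2637 and 2626, and indomethacin 2596 and 2616. Of its other probe sets, 1 fell over both sets (-0.30, adjusted p = 0.0301) with an interaction of -0.41 (adjusted p = 0.0901), and the other stood at -0.044 (adjusted p = 0.819) with an interaction of -0.21 (adjusted p = 0.585). Each of these 3 calls was lost without single arrays. For Psmd10 these were any DMSO array, NS-398 1b, NS-398 2 or NS-398 2b (limma adjusted p from 0.0753 to 0.155). For Psmd12 they were any DMSO array, NS-398 1, NS-398 2, NS-398 2b, SC-560 1b or SC-560 2b (0.0588 to 0.148). For Psmc6 they were DMSO 1, DMSO 1b, DMSO 2, NS-398 1, NS-398 2 or NS-398 2b (0.0521 to 0.0969). The count of 4 fell to 1 without DMSO 1, DMSO 1b, DMSO 2, NS-398 2 or NS-398 2b, and to 2 without DMSO 2b or NS-398 1. The count was 3 without SC-560 1b or SC-560 2b.

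**Figure D3:**
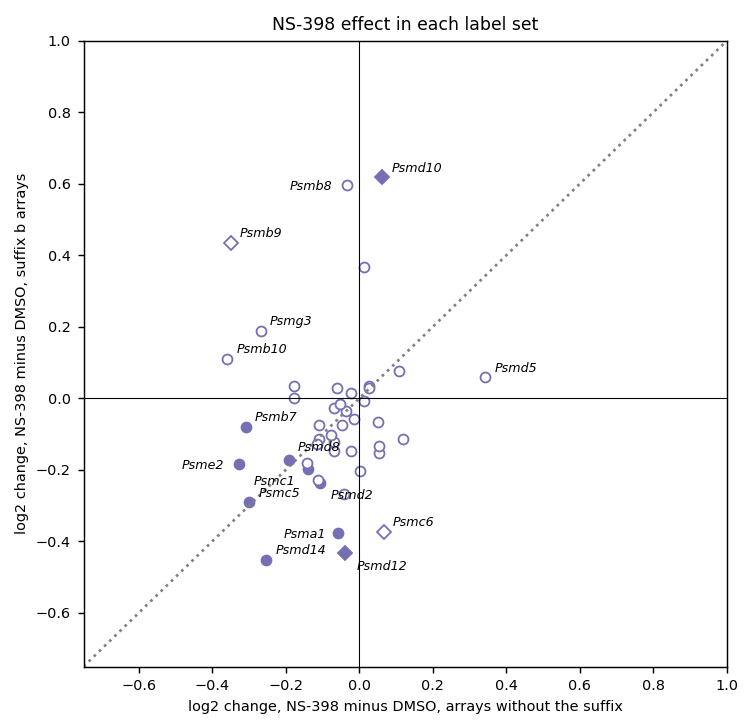
Log2 change of each of the 45 genes under NS-398, NS-398 minus DMSO, on the arrays without the suffix (horizontal) and on the suffix b arrays (vertical), with the line of equal change dotted. Filled symbols passed the test over both sets and diamonds passed the test of the difference between sets; Psmb9 is at -0.35 and 0.43, Psmd14 at -0.25 and -0.45.

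Genes from every class of the 45 differed between the label sets. Over all arrays, 32 of the 45 genes passed the test for the label set, 13 higher and 19 lower on the suffix b arrays. Of all probe sets, 31.0% were higher and 28.0% lower. Among the 5210 with a mean signal of at least 1000, 35.5% were higher and 36.9% lower. Of the 40 members among these bright probe sets, 16 were lower. The immunoproteasome genes Psmb9 and Psmb10 were lower on the suffix b arrays, as were Psme1 and Psme2. Psmb8 is among the 19, but it met the signal minimum only on the arrays without the suffix and supports nothing here. For Psmb9 (-0.28 ± 0.11, limma adjusted p = 0.035) the call was lost without any 1 of the DMSO or SC-560 arrays (0.0696 to 0.094). In contrast, 6 of 7 assembly chaperones were higher (Psmd9 by 0.66, Psmg4 by 0.40 and Psmg3 by 0.32), while 5 of 7 alpha ring genes were lower and none higher. A second probe set of Psmd9 stood at 0.044 (adjusted p = 0.764). The call of Psma5 was lost without SC-560 2 (0.0552) or SC-560 2b (0.0615), and that of the ATPase Psmc3 without any DMSO array, SC-560 1b or SC-560 2 (0.0573 to 0.113).

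Psmb8, the chymotrypsin-like immunoproteasome subunit, gave 179.5 and 191 in DMSO without the suffix and 32.5 and 54.8 with it. NS-398 gave 211 and 152, and 92.6 and 88.9, SC-560 181 and 216, and 68.1 and 59.4, and indomethacin 63.2 and 7.14. Every array without the suffix lay above 100 and every suffix b array below it, where the constant of 50 added before the logarithm compresses differences. Since it entered through the set where it is high, its difference between the sets is given with no test.

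Psmb10, the trypsin-like immunoproteasome subunit, gave 907 and 839 in DMSO without the suffix and 413 and 439.8 with it, and its sets did not overlap in any group. NS-398 gave 625 and 717, and 443 and 486, SC-560 794 and 788, and 453 and 463, and indomethacin 398.3 and 429. The label set difference was -0.72 ± 0.075 (limma adjusted p = 2.19e-07). Under NS-398 it was lower without the suffix (-0.36, adjusted p = 0.0466) and at 0.11 with it (adjusted p = 0.558), and the difference between the sets missed the threshold (0.47 ± 0.14, adjusted p = 0.0697). Psmb8 was too dim on the suffix b arrays for that difference to be read.

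Psme2, the beta subunit of the 11S activator, gave 3244 and 2886 in DMSO without the suffix and 1969 and 1751 with it. NS-398 gave 2535 and 2329, and 1627 and 1632, SC-560 3329.6 and 3004, and 1655 and 1672, and indomethacin 1596 and 1549. It was lower on the suffix b arrays (log2 difference -0.72 ± 0.059, limma adjusted p = 1.03e-08) and also fell under NS-398 (-0.26 ± 0.072, adjusted p = 0.027; -0.33 without the suffix and -0.18 with it), which left the NS-398 arrays below DMSO in both sets. Its partner Psme1, the alpha subunit, gave 5678 and 5064, and 3959 and 3977 in DMSO and 5068 and 4869.8, and 3740.2 and 3595 under NS-398. SC-560 gave 5649 and 5396, and 4271 and 3853, and indomethacin 3718 and 3695. Psme1 differed by -0.43 ± 0.04 between the sets (limma adjusted p = 5.12e-08) and by -0.11 ± 0.049 under NS-398 (adjusted p = 0.15). A second, dim probe set of Psme1 stood at 0.79 under indomethacin (adjusted p = 0.0926), unlike the first (-0.095). Psme4, a single-chain activator, gave 2062 and 2015, and 2338 and 2216 in DMSO and 1944 and 1959, and 2336 and 2310.1 under NS-398. SC-560 gave 1866 and 2121, and 2224 and 2158, and indomethacin 2365 and 2230.2. It was higher on the suffix b arrays (0.18 ± 0.045, limma adjusted p = 0.00238).

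**Figure D4:**
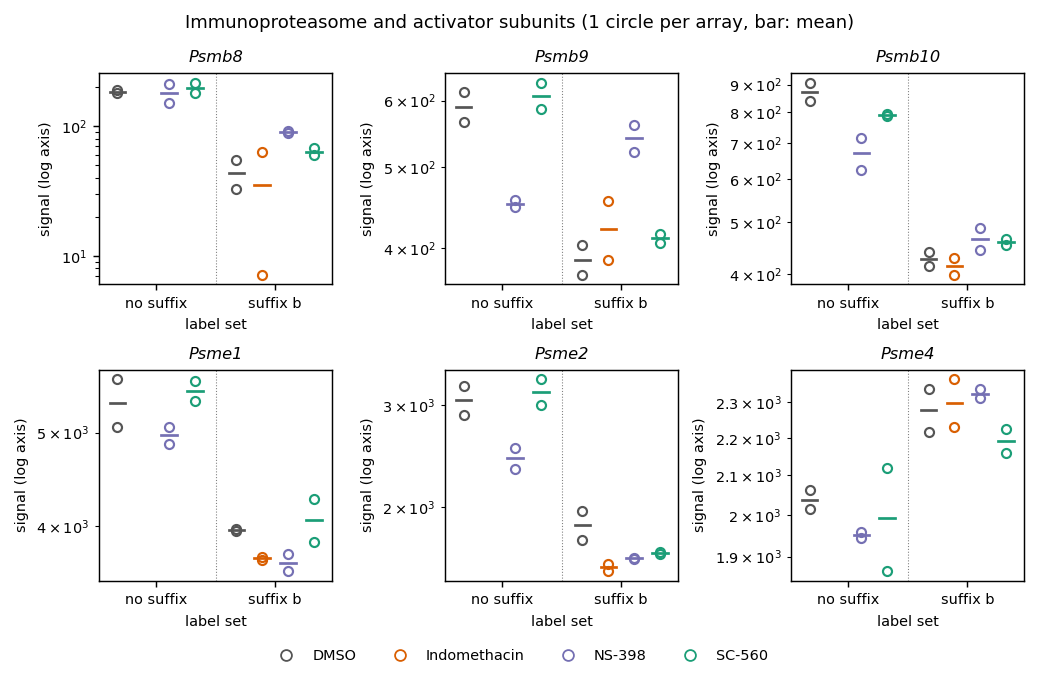
Signals of the immunoproteasome subunits and of the activators Psme1, Psme2 and Psme4, 1 circle per array with a bar at the mean, on log axes, by label set and group. Psmb8, Psmb10, Psme1 and Psme2 are lower on all suffix b arrays than on all arrays without the suffix in their panels, Psme4 is higher on all suffix b arrays, and for Psmb9 the order of NS-398 and DMSO turns over between the sets.

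Other interferon and antigen presentation genes moved with the label set too. Of 13 measured from a list of 20, 9 were lower on the suffix b arrays and 3 higher, against 28.0% and 31.0% of all probe sets, and 1 of the 9, Isg15, reached 100 on only 1 suffix b array. The median of the 13 was -0.26, against 0.026 over all probe sets. Lower were the guanylate binding protein Gbp2 (-1.47 on the log2 scale), the interferon gamma receptor chain Ifngr2 (-0.96), the major histocompatibility gene RT1-S3 (-1.29) and the transcription factor Irf1 (-0.83). The peptide transporters Tap1 and Tap2 were higher (0.56 and 0.34), as was Stat2 (0.25). Irf1 gave DMSO signals of 1766 and 1621 without the suffix and 1195 and 1033 with it, and Gbp2 1416 and 1457, and 435 and 468. The part of the label sets' other differences in these values was not tested. Of the 13, 2 had an NS-398 effect called more positive on the suffix b arrays and none more negative. Of all probe sets, 2.92% and 2.55% were so called, and of those with a mean signal of at least 1000, 6.28% and 5.11%. The 2 were Ifngr2 (0.56, limma adjusted p = 0.00765) and B2m (0.31, adjusted p = 0.00965), the light chain of class I molecules. For Irf1 and Tap1 the difference in the NS-398 effect was -0.53 (adjusted p = 0.103) and 0.40 (adjusted p = 0.317). Among the regulators and bound proteins, the label set difference was 0.36 for Nfe2l1, -0.15 for Nfe2l2, 0.34 for the assembly factor Pomp, 0.78 for the ubiquitin receptor Adrm1 and 0.095 for the deubiquitinase Usp14, and all 5 passed.

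Under indomethacin none of the 45 genes passed against DMSO (limma, smallest adjusted p 0.0902), where 1.51% of all probe sets rose and 1.76% fell, and 7 had an unadjusted p under 0.05. The median log2 change was 0.00092, against -0.0031 over all probe sets, and 23 genes lay above 0. Psmd10 had the largest difference, 0.42 ± 0.13, with a 95% interval of 0.15 to 0.69. The next by p was Psmc5 (-0.23 ± 0.075, adjusted p = 0.109). For 42 of the 45 genes the 95% interval lay within 0.5 of 0.

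Both indomethacin arrays lie in the suffix b set, and the label set term rests on the other groups. On the suffix b arrays alone, 2 against 2, 3 members passed, 1 higher and 2 lower (3.62% and 3.08% of all probe sets): Psmd10 (0.54, limma adjusted p = 0.00724), Psma1 (-0.29, adjusted p = 0.0495) and Psmd12 (-0.31, adjusted p = 0.0454). With all sets but without NS-398 2, Psmd10 passed. Against the same DMSO arrays the values for NS-398 were 0.62, -0.38 and -0.43, and for SC-560 0.12, -0.17 and -0.24. These 3 comparisons share their DMSO arrays.

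On the suffix b arrays, 9 of the 45 genes had all 6 treated arrays below both DMSO arrays, as did 7.11% of all probe sets, and 1, the assembly chaperone Psmg4, had them all above (6.42%). The 9 were Psma1, Psma4, Psmc5, Psmc6, Psmd2, Psmd6, Psmd12, Psmd13 and Psme2. Without the suffix, 4 genes had all 4 treated arrays below (7.23% of all probe sets) and none above (8.07%). Psmc5 and Psmd12 were in both groups of genes.

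Under SC-560 none of the 45 genes passed against DMSO, nor did any probe set (0.0%, limma), and 3 of the 45 had an unadjusted p under 0.05, as did 1263 of the 17515 probe sets. The median log2 change of the 45 was -0.018, against 0.0064 over all. The estimates ran from -0.14 for the lid subunit Psmd13 to 0.20 for Psmg4, and for 44 genes the 95% interval lay within 0.5 of 0. For the 3 genes whose fall under NS-398 passed whichever array was left out, the SC-560 estimate was -0.045 ± 0.064 for Psmd14, -0.11 ± 0.058 for Psmc5 and 0.029 ± 0.046 for Psmd8. Of the genes that fell, Psma1, Psmc5, Psmd2, Psmd12 and Psme2 had both SC-560 arrays below both DMSO arrays with the suffix, as listed above. Without the suffix this held for Psmc5 and Psmd12, while for Psma1 SC-560 lay above DMSO. The doses differ, 1 µM against 100 µM.

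**Figure D5:**
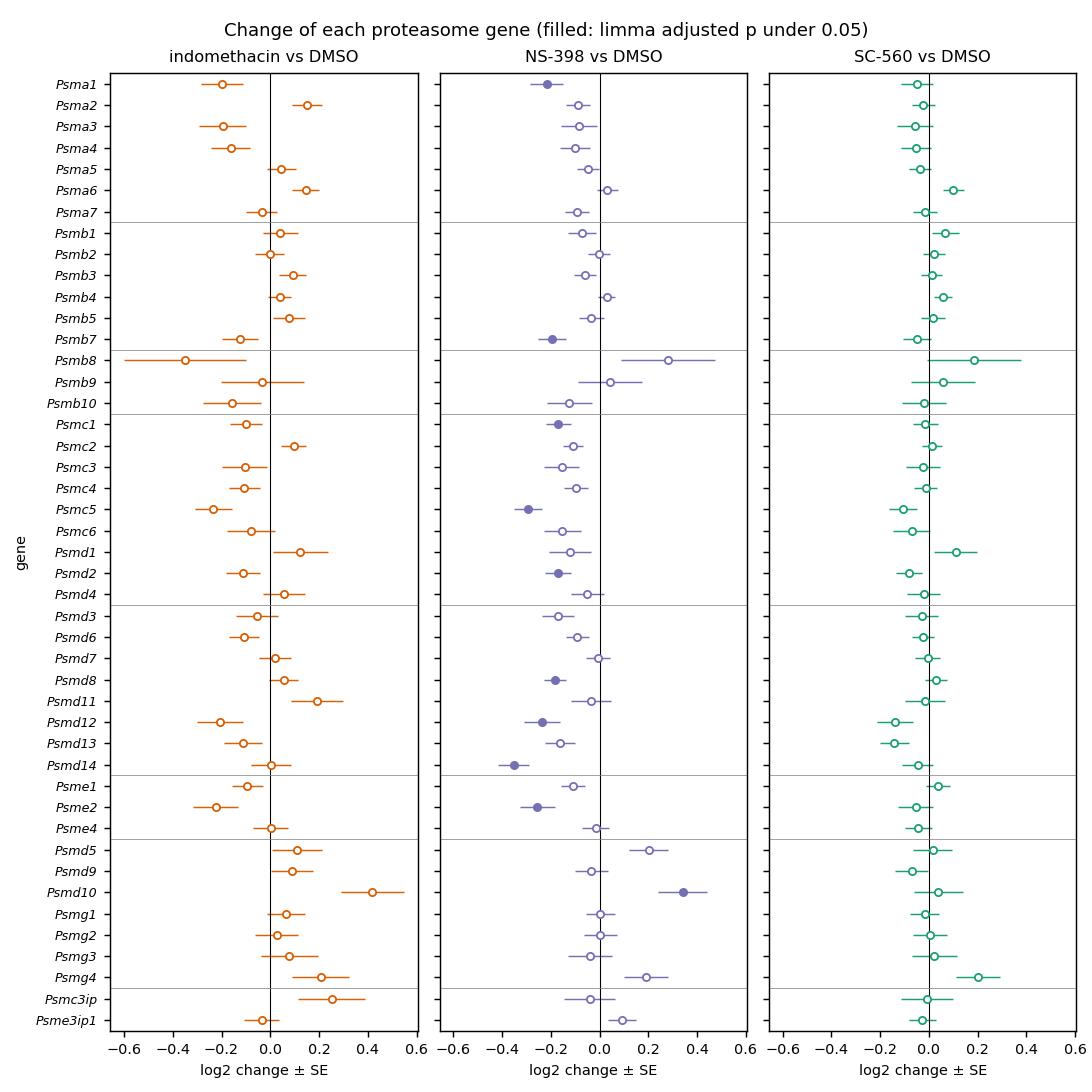
Log2 change of each proteasome gene against DMSO with its standard error, for Indomethacin, NS-398 and SC-560; filled points have a limma adjusted p under 0.05, and grey lines separate the parts of the complex in the order alpha ring, beta ring, immunoproteasome, base, lid, activators, assembly chaperones and the 2 genes named after a subunit. NS-398 has 10 filled points, 9 of them left of 0, and the other drugs have none.

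Compared with each other at 100 µM, indomethacin exceeded NS-398 for 4 of the 45 genes and for none was it lower. Of all probe sets, 2.08% were higher and 3.36% lower, and of those with a mean signal of at least 1000, 3.67% and 6.03%. The 4 genes were Psmd14 (0.35 ± 0.082, limma adjusted p = 0.0178), Psmd8 (0.24 ± 0.059, adjusted p = 0.0264), the alpha ring subunit Psma2 (0.24 ± 0.062, adjusted p = 0.0316) and the base ATPase Psmc2 (0.20 ± 0.053, adjusted p = 0.0312). Among arrays with the suffix, Psma2 gave 7523 and 7698 under indomethacin, 6545 and 6834 under NS-398, 6803 and 6579 in DMSO and 6864 and 6458 under SC-560. The indomethacin arrays were the highest of that set. Without the suffix Psma2 gave 10057 and 9535 in DMSO, 9074 and 8265 under NS-398 and 9453 and 9596 under SC-560. Psmc2 gave 9448 and 9599 under indomethacin and 8247 and 7861 under NS-398, with 9062 and 8793 in DMSO and 9385 and 9052 under SC-560, all with the suffix. Its signals without the suffix were 11064 and 10600.3 in DMSO, 10532 and 10113 under NS-398 and 10763 and 10611 under SC-560. For all 4 genes the indomethacin and NS-398 arrays of the suffix b set did not overlap. With 2 arrays against 2, that also held, in either direction, for most of the uncalled members, among them Psma5 and Psmb1. The share of all probe sets without overlap was not counted. All 4 passed in that set alone, in a fit on the same indomethacin and NS-398 arrays. The median difference over the 45 genes was 0.060, against 0.0039 over all. None of the 4 passed without Indomethacin 1b (limma adjusted p from 0.0912 to 0.149), where only Psmb8, below 100 on these arrays, did, or without Indomethacin 2b (0.175 to 0.218). Without NS-398 1b, Psma2 and Psmc2 were lost (0.0504 and 0.0617), and without NS-398 2b, Psmc2 and Psmd14 (0.0908 and 0.0562). Without the label set term none passed and Psma2 stood at -0.00013.

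Beyond the subunits, some genes that feed or regulate the proteasome passed the test for NS-398 against DMSO. Among probe sets with a mean signal of at least 1000, 11.7% rose and 10.9% fell. From a list of 10 regulators of proteasome genes, 2 rose and 1 fell, where 7.12% of all probe sets rose and 6.39% fell, with a median of 0.28 against -0.0076 over all. Nfe2l2, the oxidative stress factor that binds antioxidant elements, rose by 0.32 ± 0.046 (limma adjusted p = 0.000295). Its DMSO signals were 7817 and 8047 without the suffix and 7018 and 7465 with it, and NS-398 gave 10281 and 10194, and 8578 and 8824, above every other array of the same set. SC-560 gave 8065 and 7700.2, and 7009 and 7777, and indomethacin 7439 and 7791. Nfe2l1 rose by 0.31 ± 0.081 (adjusted p = 0.0161), from 597 and 480.5, and 683 and 717 in DMSO to 699 and 651, and 881 and 892. Its estimate was 0.37 ± 0.10 under indomethacin (adjusted p = 0.0624) and 0.23 ± 0.081 under SC-560 (adjusted p = 0.527). Ngly1, the deglycosylase that Nfe2l1 needs for its activity, fell by 0.25 (adjusted p = 0.0103).

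Of 13 measured ubiquitin and shuttling genes from a list of 20, 1 rose and 2 fell under NS-398, with a median of -0.044. Against the 7.12% of all probe sets that rose and the 6.39% that fell, 1 gene of 12 or 13 is near the background. The ubiquitin-activating enzyme Uba1 fell by 0.25 (limma adjusted p = 0.00161), Ufd1, a partner of the segregase Vcp, fell by 0.25 (adjusted p = 0.00955), and Zfand5, which stimulates the proteasome, rose by 0.33 (adjusted p = 0.0083), by 0.12 without the suffix and 0.55 with it, and this difference passed the interaction test (0.43, adjusted p = 0.00935). Of 12 measured proteasome-bound proteins from a list of 14, Usp14, the deubiquitinase of the cap, fell by 0.16 (adjusted p = 0.0334), and none rose; their median was -0.076. Pomp stood at -0.083 (adjusted p = 0.182) and Adrm1 at -0.038 (adjusted p = 0.81). Of the 13 interferon and antigen presentation genes, B2m rose (0.19, adjusted p = 0.0362) and Gbp2 fell (-0.33, adjusted p = 0.019), with a median of 0.047, while Irf1 stood at 0.14 (adjusted p = 0.455) and Tap1 at 0.082 (adjusted p = 0.705).

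Under indomethacin, of the 10 regulators Stat3 rose (0.45, limma adjusted p = 0.00498) and Fbxw7, a ubiquitin ligase component that targets Nfe2l1, fell (-0.46, adjusted p = 0.0404), and no gene of the other 3 lists passed. The list medians were 0.13 for regulators, 0.012 for ubiquitin genes, -0.064 for bound proteins and -0.056 for interferon genes. Nfe2l2 stood at 0.083 (adjusted p = 0.52), Pomp at 0.091 (adjusted p = 0.389), Usp14 at 0.0049 (adjusted p = 0.982) and Adrm1 at 0.073 (adjusted p = 0.781). Irf1 and Tap1 both stood at -0.17 (adjusted p = 0.593 and 0.618). Indomethacin exceeded NS-398 for Stat3 (0.50), Uba1 (0.26) and Tapbp (0.44) and lay below it for Fbxw7 (-0.71) and Nfe2l2 (-0.23), by limma adjusted p under 0.05. The difference was 0.057 for Nfe2l1, 0.17 for Pomp, 0.16 for Usp14, 0.11 for Adrm1, -0.31 for Irf1 and -0.26 for Tap1, and none of these 6 passed. Under SC-560 no gene of the 4 lists passed, and the medians lay between -0.03 and 0.027. Nfe2l2 stood at 0.0097, Usp14 at -0.011, Pomp at 0.018, Adrm1 at 0.16, Irf1 at -0.09 and Tap1 at -0.12.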

How the data were processed

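The 14 arrays were grouped by the labels' treatment texts. The authors deposited 1 linear signal intensity for each of 31099 probe sets and array, made with a target signal of 500 per the labels, and the trimmed mean of every array was 500.2. Per the labels, RNA was amplified in 2 rounds of in vitro transcription. The summarising software is not given in the sources used here. Gene symbols came from the platform's annotation, updated with a RefSeq table (GRCr8): 20832 probe sets had 1 symbol, 436 several and 9831 none. Members, lists and motifs were chosen with earlier results of these data known. Values on every array are given for Psmb5 to Psmb10, the activators and up to 8 called members per direction and comparison, by size of change. From each pathway list up to 3 called genes per direction are named by adjusted p, and Nfe2l1, Nfe2l2, Pomp, Usp14, Adrm1, Irf1 and Tap1 always.

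Signals were fitted as log2(signal + 50) with limma 3.58.1 (R 4.3.3), with 1 mean per group plus the label set, empirical Bayes with an intensity trend, and Benjamini-Hochberg adjustment over the 17515 probe sets with a signal of at least 100 on at least 2 arrays, 57 controls left out. Log2 changes of dim genes are understated by the constant. A gene was called at an adjusted p under 0.05, and errors after ± are standard errors. The fit was tested on simulated data. The number of arrays limits the precision. Alternatives were other constants and filters, quantile or median scaling, no trend, blocks, the mean of a gene's probe sets, no label set term, each label set alone and each array left out.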

Additional observations from a re-analysis of the deposited data

Results flagged for a closer look

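In 135 sets of 4 arrays (1 gene in 1 group), 1 array lay far from the other 3 in 3 cases. Chance gives about 1 in 20 for 4 alike arrays, but these sets of 4 span both label sets, so that share does not hold here. The gap to the nearest array, as a share of the whole range, was 0.8915 for Psma7 under NS-398, where NS-398 1b was low. It was 0.8744 for Psmd7 under NS-398, where NS-398 2 was low, and 0.8777 for Psmg4 in DMSO, where DMSO 1b was high. The log2 effect of NS-398 differed between label sets (suffix b minus no suffix, limma's interaction test) for Psmb9 (0.79), Psmd10 (0.56), Psmc6 (-0.44) and Psmd12 (-0.40).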

How the results depend on the processing

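The median log2 change of the 45 genes moved by less than the spread between arrays (SD 0.047) in each of the 5 comparisons under every alternative run. Counts of called genes were less stable. For NS-398 against DMSO (10) the count was 5 without the suffix alone, 5 with no filter, 3 with no intensity trend, 0 with no label set term, 3 with the random block, 5 with the replicate block and 4 to 10 with 1 array left out. It stayed at 10 under both other constants, the stricter filter, both scalings, the mean of a gene's probe sets and the suffix b arrays alone, although quantile scaling put Psmc2 in place of 1 gene and the suffix b arrays shared 6. For the difference of the NS-398 effect between sets (4) it was 1 with no filter, 1 with no trend, 2 with the replicate block, 5 with quantile scaling (adding Psma1), 3 with equal medians, 3 with the mean of probe sets and 1 to 4 with 1 array left out. The random block could not be fitted there, since the design already holds it. For indomethacin against DMSO (0) it was 3 on the suffix b arrays alone and 0 to 1 with 1 array left out. For indomethacin against NS-398 (4) it was 2 with no filter, 0 with no trend, 0 with no label set term, 1 with the random block, 1 with the replicate block and 0 to 4 with 1 array left out. Psma2 turned from 0.24 to -0.00013 there without the label set term. SC-560 against DMSO stayed at 0 throughout. The cause was not tested, beyond what each alternative does by construction (fewer arrays, more dim probe sets). The replicate block used the whole label (1, 2, 1b or 2b): deviations from group means correlated at r of -0.04 to 0.79 between equal labels and at -0.05 to 0.81 between unequal digits within a set. After set means were removed too, r for equal labels was -0.08 to 0.06, so the digits share only a number. Signals near 100, as for Psmb8, limit what can be read from that gene.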
